A study of Mus musculus with 20 samples.

Results

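Interferon-stimulated genes are the genes that cells switch on when an interferon binds its receptor. The set described here named 39 of them, and its members were the probe sets whose gene symbol in the platform annotation is exactly one of those names. By that rule 37 genes were measured by 58 of the 45037 probe sets, and 15 of these genes had more than 1 probe set. The remaining names, Isg15 and Ifi44, were not analysed here, because the probe set of Isg15 also names a further gene and Ifi44 was not matched to any probe set.

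Livers came from 20 male mice in 4 groups of 5 animals, with 1 array per animal. PXR-KO CMP013 and PXR-KO vehicle mice lacked the pregnane X receptor (PXR-/-, strain C57BL/6NTac), and WT CMP013 and WT vehicle mice carried it (PXR+/+, C57BL/6). CMP013, a small-molecule inhibitor of the protease BACE1, was given by oral gavage at 150 mg/kg/day, and vehicle mice received the carrier solution alone. Dosing started at 9 weeks of age and was repeated daily, and livers were taken at 96 h. The study paired each genotype with its own background strain, so the absence of PXR and the strain cannot be told apart. Each value relates an animal to the averaged vehicle group of its own genotype, so the level of a gene, the deleted receptor gene and the difference between vehicle mice of the genotypes were not analysed here.

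As background, type I interferons (alpha and beta) act through the receptor chains Ifnar1 and Ifnar2 and the kinases Jak1 and Tyk2, which activate a complex of Stat2, Irf9 and a further STAT protein. That complex binds the interferon-stimulated response element (ISRE) and drives antiviral effectors such as the Ifit, Oas and Mx proteins. Interferon-gamma acts through Ifngr1 and Ifngr2 and leads to STAT dimers that bind the gamma-activated site (GAS), and the guanylate-binding proteins (Gbp) and immunity-related GTPases (Irgm1, Irgm2, Igtp and Ifi47) are its best known targets. Many genes answer to both kinds of interferon, so the classes overlap in their control. PXR is a nuclear receptor of hepatocytes that senses drugs and other foreign compounds.

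The promoters of 3 type I effectors and 3 interferon-gamma GTPases are printed first, because they hold the elements searched for and because the responses of these 6 genes are described in the results. Each line gives the 160 bases upstream of a start site, 5′ to 3′ on the strand of the gene, from RefSeq on GRCm38.p6, with matches to the motifs in capitals. For Ifit3 this start site and the window shown lie inside the annotated gene (chr19:34583119-34588982), downstream of its first base. The ISRE was searched as GAAANNGAAA and its reverse complement TTTCNNTTTC, the GAS as TTCNNNGAA, which reads alike on both strands, and N is any base. The genes lie at chr19:34640729-34640888 (Ifit1, plus strand), chr19:34583369-34583528 (Ifit3, plus), chr12:26456453-26456612 (Rsad2, minus), chr11:48871421-48871580 (Irgm1, minus), chr11:58199396-58199555 (Igtp, plus) and chr11:58214817-58214976 (Irgm2, plus), these being the windows shown.
Ifit1: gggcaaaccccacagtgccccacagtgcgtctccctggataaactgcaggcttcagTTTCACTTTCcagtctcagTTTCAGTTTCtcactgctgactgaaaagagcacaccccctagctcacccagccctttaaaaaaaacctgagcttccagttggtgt
Ifit3: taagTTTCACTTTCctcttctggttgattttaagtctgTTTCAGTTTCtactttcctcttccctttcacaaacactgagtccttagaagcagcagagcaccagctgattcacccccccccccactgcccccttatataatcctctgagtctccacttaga
Rsad2: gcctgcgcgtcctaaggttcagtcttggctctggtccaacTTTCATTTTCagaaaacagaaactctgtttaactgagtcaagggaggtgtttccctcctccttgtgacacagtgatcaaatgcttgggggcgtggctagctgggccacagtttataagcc
Irgm1: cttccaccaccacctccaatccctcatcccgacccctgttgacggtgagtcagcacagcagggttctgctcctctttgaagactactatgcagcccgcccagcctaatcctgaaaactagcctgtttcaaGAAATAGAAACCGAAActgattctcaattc
Igtp: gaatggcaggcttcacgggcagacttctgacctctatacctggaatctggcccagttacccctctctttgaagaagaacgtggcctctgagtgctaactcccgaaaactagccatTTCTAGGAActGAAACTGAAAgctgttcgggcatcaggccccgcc
Irgm2: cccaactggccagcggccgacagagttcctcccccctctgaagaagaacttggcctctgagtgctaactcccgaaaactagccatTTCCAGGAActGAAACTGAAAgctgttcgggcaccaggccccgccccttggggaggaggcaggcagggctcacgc

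Ifit1 and Ifit3 each held 2 ISRE matches in the windows shown, and Rsad2 held 1. Igtp and Irgm2 each held a GAS match followed by an ISRE match, and their windows shared a run of 38 identical bases. In Irgm1 the capitals hold 2 ISRE matches that overlap. Over windows of 250 bases before to 50 bases after the start site, 28 of the 37 measured genes were matched by symbol with 35 promoters, of which 15 (42.9%) held an ISRE match, against 1131 of 32851 promoters (3.44%) in the whole table. A GAS match was found in 9 member promoters (25.7%), against 2726 (8.30%) in the whole table. By class, 5 of 15 promoters of type I effectors (33.3%) and 5 of 7 of the GTPases (71.4%) held an ISRE match, while 4 (26.7%) and 2 (28.6%) held a GAS match. A match describes letters in a window and is not evidence of binding.

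Differences were tested with limma over all 45037 probe sets, CMP013 against vehicle within each genotype, and the difference of the responses was coded as WT minus PXR-KO. A gene is said to rise or fall where its adjusted p (Benjamini-Hochberg) is below 0.05, and all fold changes are log2 differences. CMP013 changed 3.65% of all probe sets in PXR-KO mice and 14.4% in WT mice, and the response differed between genotypes at 11.0%. The median log2 fold change over all probe sets was 0.01 in PXR-KO mice and -0.01 in WT mice. Array medians lay between -0.03 and 0.01, and intensities were not used here, so the signal over background of a probe set was not assessed. Among vehicle animals, PXR-KO replicates 2 and 4 and WT replicates 3 and 4 were known from earlier results to stand apart from their groups, and counts are given with and without them.

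Of the 37 genes, which were chosen with earlier results known, CMP013 raised most in WT mice and hardly any in PXR-KO mice. Without WT vehicle replicates 3 and 4, 8 of the 22 WT calls remained, and 10 remained after quantile normalization. Of 34 other interferon-induced genes, described below, 5 rose in WT mice, where 7.67% of all probe sets rose. In PXR-KO mice 1 of 37 genes rose (the background for a rise was 2.12% of all probe sets) and 0 fell (background 1.54%) in limma, with 4 higher (background 10.8%) and 6 lower (background 9.25%) at an unadjusted p under 0.05. In WT mice 22 of 37 rose (background 7.67%) and 0 fell (background 6.72%), with 28 higher (background 13.8%) and 0 lower (background 13.7%) at an unadjusted p under 0.05. The median log2 fold change of the 37 genes was -0.03 in PXR-KO and 0.71 in WT mice. Of the 22 genes that rose in WT mice, 12 rose at least 2-fold. Livers hold several cell types, and these arrays cannot separate a change in RNA per cell from a change in the number of cells of a type.

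Single animals showed the same contrast. In PXR-KO mice the CMP013 and vehicle animals did not overlap at 2 of 37 genes on the higher side (4.07% of all probe sets) and 2 on the lower side (3.50%), and in WT mice at 20 on the higher side (7.78%) and 0 on the lower side (6.96%). The median over the 37 genes was 0.01, -0.26, -0.06, 0.09 and -0.06 in the PXR-KO CMP013 animals, against -0.04, -0.10, -0.03, 0.03 and 0.00 in the PXR-KO vehicle animals. It was 0.66, 0.33, 1.2, 0.50 and 0.82 in the WT CMP013 animals, against 0.04, 0.26, -0.26, -0.16 and -0.06 in the WT vehicle animals. WT CMP013 replicate 3 was the highest treated animal at 35 of 37 genes and replicate 2 the lowest at 24. Most of the 37 genes thus shared their highest and their lowest WT CMP013 animal, and the share over all probe sets was not computed. Among PXR-KO CMP013 mice, replicate 2 was lowest at 21 genes and replicate 4 highest at 17.

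**Figure D1:**
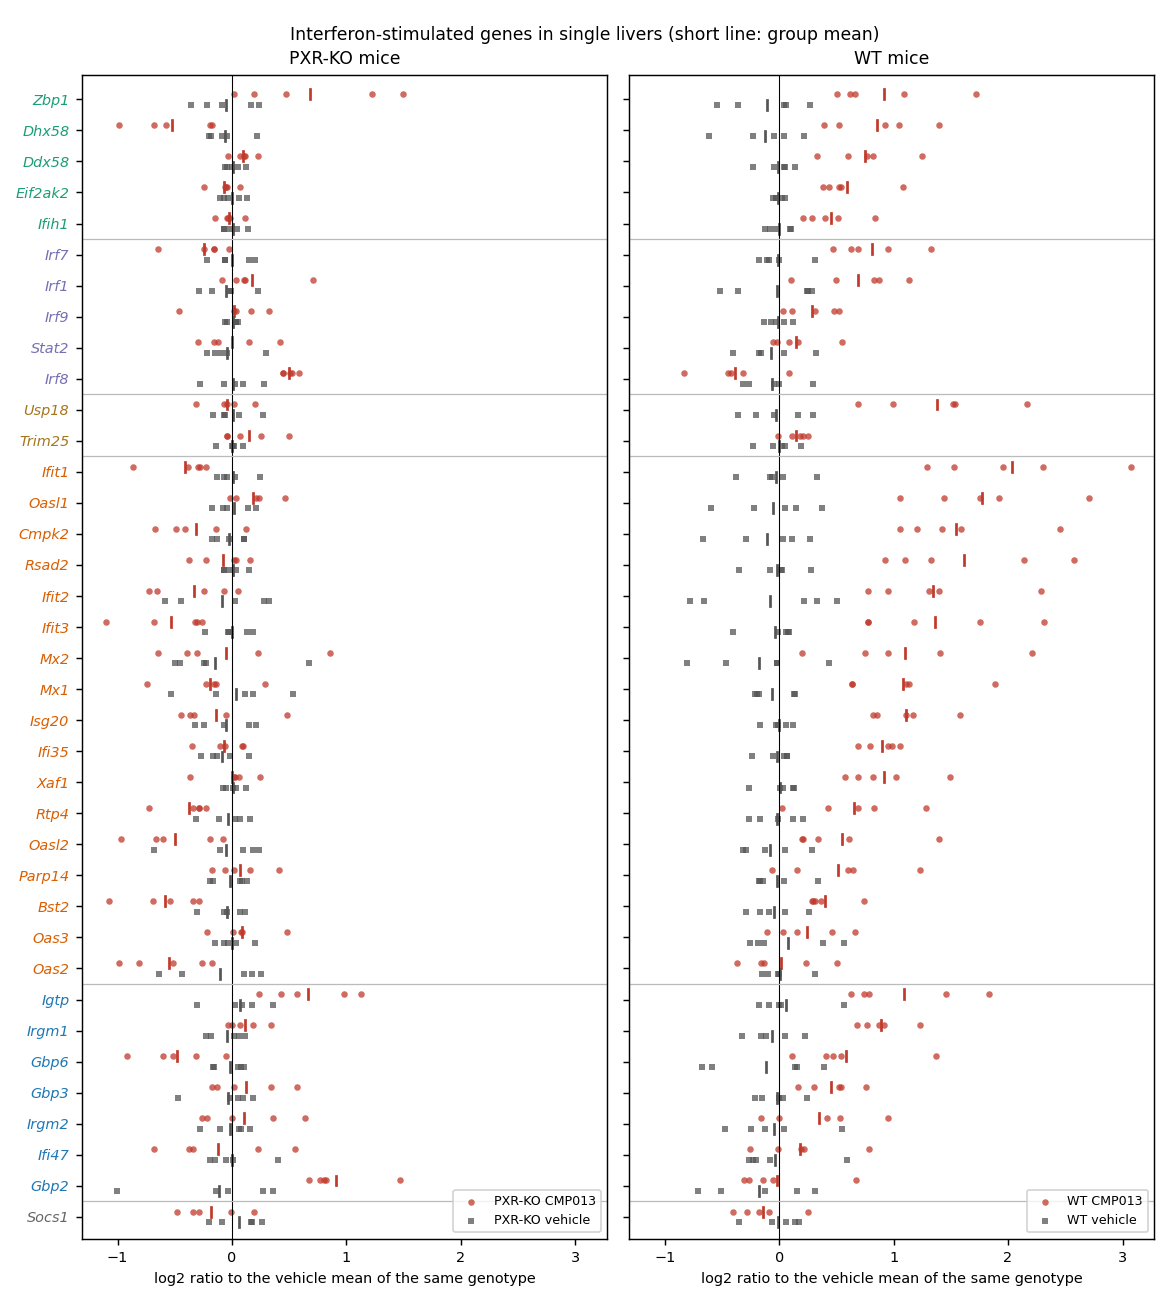
Log2 ratio (x axis) of each of the 37 genes (y axis, by class, ordered by WT fold change) in every animal, PXR-KO mice at left and WT mice at right; circles are CMP013 animals, squares vehicle animals and short lines group means. In the WT panel the circles of 20 genes lie wholly above the squares, and in the PXR-KO panel those of 2 genes do.

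Ifit1, an antiviral protein that binds viral RNA lacking the host cap methylation, had the largest response of the set. In PXR-KO mice its log2 ratios were -0.39, -0.86, -0.30, -0.22 and -0.28 with CMP013, against -0.04, 0.24, -0.07, 0.02 and -0.13 with vehicle. In WT mice they were 1.96, 1.29, 3.07, 1.53 and 2.31 with CMP013, against 0.33, -0.08, -0.38, -0.06 and 0.03 with vehicle. The treated animals were thus wholly below the vehicle animals in PXR-KO and wholly above them in WT mice. Its log2 fold change was -0.42 ± 0.14 (SE, n = 5 per group, adjusted p = 0.123) in PXR-KO and 2.06 ± 0.30 (adjusted p = 0.00185) in WT mice by limma, a 4.17-fold rise in WT. The responses differed by 2.48 (95% confidence interval 1.76 to 3.20, limma adjusted p = 0.000140).

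The neighbouring family members behaved alike in WT mice. Ifit3 had log2 ratios of -0.68, -1.10, -0.26, -0.32 and -0.30 in PXR-KO CMP013 mice, against 0.19, 0.13, -0.04, -0.23 and -0.03 in PXR-KO vehicle mice. Its ratios were 1.18, 0.77, 2.31, 0.78 and 1.75 in WT CMP013 mice, against -0.01, 0.06, -0.40, 0.09 and 0.08 in WT vehicle mice. It rose by 1.40 in WT mice (limma adjusted p = 0.0100), while in PXR-KO mice the fold change was -0.54 with non-overlapping groups but did not pass the test (adjusted p = 0.116). Ifit2, a further RNA-binding family member, rose by 1.42 in WT mice (limma adjusted p = 0.0201), and its vehicle animals ranged more widely, between -0.78 and 0.50. The difference of the responses passed the test at both, at 1.93 for Ifit3 and 1.66 for Ifit2.

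Rsad2 (viperin), which makes a chain-terminating nucleotide that stops viral RNA synthesis, and Cmpk2, a mitochondrial nucleotide kinase encoded beside it, rose together in WT mice. In PXR-KO mice Rsad2 had log2 ratios of -0.37, 0.02, 0.04, 0.16 and -0.22 with CMP013 and -0.07, 0.15, -0.07, -0.02 and 0.04 with vehicle. In WT mice it had 1.10, 0.92, 2.57, 1.33 and 2.14 with CMP013 and -0.08, 0.28, -0.35, 0.02 and 0.03 with vehicle. The groups overlapped in PXR-KO mice and lay apart in WT mice. The log2 fold change of Rsad2 was -0.08 in PXR-KO (limma adjusted p = 0.731) and 1.64 ± 0.30 in WT mice (adjusted p = 0.00627), and all 3 of its probe sets rose in WT mice by 1.64 to 1.98. Cmpk2 had ratios of -0.67, -0.41, -0.49, 0.12 and -0.14 in PXR-KO CMP013 mice, against 0.10, -0.13, -0.03, -0.18 and 0.10 in PXR-KO vehicle mice. Its ratios were 1.42, 1.05, 2.45, 1.21 and 1.59 in WT CMP013 mice, against 0.03, 0.27, -0.29, -0.67 and 0.11 in WT vehicle mice. Cmpk2 thus rose 3.15-fold in WT mice (log2 1.65, limma adjusted p = 0.00323), and the responses differed by 1.72 at Rsad2 and 1.95 at Cmpk2.

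The 2′-5′-oligoadenylate synthetase family, whose classical members make the messenger that switches on RNase L, did not move as 1 group. Oasl1, a synthetase-like protein without that enzyme activity that restrains Irf7 translation in mice, had log2 ratios of 0.04, 0.46, -0.01, 0.24 and 0.21 in PXR-KO CMP013 mice, against -0.07, 0.21, -0.04, -0.17 and 0.14 in PXR-KO vehicle mice. In WT mice the ratios were 1.76, 1.05, 2.71, 1.44 and 1.92 with CMP013, against 0.05, 0.37, -0.60, 0.15 and -0.22 with vehicle. It rose by 1.83 in WT mice (limma adjusted p = 0.00296), the second highest value of the set, and every WT CMP013 animal stood above 1. Oasl2 had fold changes of -0.45 in PXR-KO and 0.63 in WT mice, neither called, and a difference of 1.08 that passed the test (limma adjusted p = 0.0422), a call lost on leaving out any of 13 of the 20 animals in turn. The classical synthetases Oas2 and Oas3 passed no test, with WT fold changes of 0.01 and 0.17 (95% confidence intervals -0.37 to 0.38 and -0.29 to 0.62) and differences of 0.45 and 0.07.

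Isg20, an exonuclease that degrades viral RNA, and Ifi35, an interferon-induced leucine zipper protein, both rose in WT mice, where the treated animals lay wholly above the vehicle animals. In PXR-KO mice Isg20 had log2 ratios of 0.48, -0.34, -0.44, -0.06 and -0.36 with CMP013 and 0.21, -0.07, -0.32, -0.25 and 0.15 with vehicle. In WT mice it had 1.11, 1.17, 1.58, 0.82 and 0.85 with CMP013 and -0.03, 0.12, -0.01, 0.06 and -0.16 with vehicle. Isg20 rose by 1.11 ± 0.15 in WT mice (limma adjusted p = 0.000990). Ifi35 had ratios of 0.09, -0.11, -0.06, 0.09 and -0.35 in PXR-KO CMP013 mice, against 0.15, -0.13, -0.27, -0.02 and -0.17 in PXR-KO vehicle mice. Its WT ratios were 0.95, 0.80, 1.06, 0.69 and 0.99 with CMP013, against -0.24, 0.07, 0.07, 0.04 and -0.06 with vehicle. With the smallest standard error among the genes that rose (0.92 ± 0.10), Ifi35 also had the smallest adjusted p of the set in WT mice (limma, 0.000426). All 3 probe sets of Ifi35 rose in WT mice, by 0.49 to 0.92. Over the 3 the difference of the responses ranged between 0.15 and 0.90, and it was called at 2 of them.

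Among the other effectors, the dynamin-like GTPases Mx1 and Mx2 rose by 1.14 and 1.28 in WT mice (limma adjusted p = 0.00837 and 0.0412), and these are RNA ratios in a strain whose Mx1 gene is known to make no functional protein. The difference of the responses passed at Mx1 (1.37) and not at Mx2 (1.18, 95% confidence interval 0.13 to 2.23, adjusted p = 0.146). Xaf1, which promotes cell death by opposing an inhibitor of apoptosis, rose by 0.92 in WT mice and had -0.01 in PXR-KO mice. Its second probe set had 0.34 in WT mice and was called neither there nor in the difference (0.62). Bst2 (tetherin), which holds budding viruses at the cell surface, had fold changes of opposite sign, -0.54 in PXR-KO mice (limma adjusted p = 0.0902, not called) and 0.45 in WT mice (adjusted p = 0.0482). Its ratios were -1.08, -0.69, -0.28, -0.54 and -0.34 in PXR-KO CMP013 mice, against -0.07, -0.31, -0.05, 0.07 and 0.11 in PXR-KO vehicle mice, and the responses differed by 0.98 (adjusted p = 0.00431). The WT calls of Mx2 and Bst2 stand close to the threshold and were lost on leaving out any of 8 and 9 of the 10 animals. Rtp4, a Golgi chaperone of receptors, passed by its representative probe set in the difference (1.01, adjusted p = 0.0139), with -0.34 in PXR-KO and 0.67 in WT mice. Its second probe set rose in WT mice by 0.86 and was not called in the difference (1.04). Parp14, an ADP-ribosyltransferase, passed in no comparison (WT 0.53, 95% confidence interval 0.03 to 1.04).

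All 5 genes of the sensors and the sensing kinase rose in WT mice and none passed the test in PXR-KO mice. Of the RIG-I-like receptors, which detect viral RNA in the cytosol, Ddx58 (RIG-I) rose by 0.76, Ifih1 (MDA5) by 0.46 and Dhx58 (LGP2) by 0.98 in WT mice (limma adjusted p = 0.0108, 0.0367 and 0.0137). Dhx58 had log2 ratios of -0.69, -0.98, -0.58, -0.17 and -0.19 in PXR-KO CMP013 mice, against 0.21, -0.18, -0.09, -0.20 and -0.04 in PXR-KO vehicle mice. Its WT ratios were 1.05, 0.39, 1.40, 0.93 and 0.53 with CMP013, against 0.04, 0.22, -0.23, -0.62 and -0.05 with vehicle. Its fold change in PXR-KO mice was -0.46 (adjusted p = 0.157), and the difference of 1.44 was the largest of the sensors. Only 1 of the 3 probe sets of Ddx58 passed in WT mice (range 0.35 to 0.76), and only 1 in the difference (0.29 to 0.68). Of the 3 probe sets of Dhx58, 2 passed in WT mice (range 0.17 to 1.23) and 2 in the difference (0.44 to 1.68). The Ifih1 call in WT mice was lost on leaving out any of 8 of the 10 animals.

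Eif2ak2 (PKR), a kinase that stops translation on binding double-stranded RNA, had log2 ratios of -0.05, -0.24, -0.06, 0.07 and -0.06 in PXR-KO CMP013 mice, against 0.06, 0.13, -0.04, -0.10 and -0.07 in PXR-KO vehicle mice. In WT mice it had 0.52, 0.38, 1.08, 0.54 and 0.44 with CMP013, against 0.02, 0.05, -0.06, -0.02 and -0.03 with vehicle. The WT vehicle animals of Eif2ak2 lay within 0.06 of 0 and all treated animals lay above them. The rise of 0.60 (1.51-fold, limma adjusted p = 0.0132) was shared by all 3 of its probe sets. The difference of the responses at Eif2ak2 was called at only 1 of the 3 (range 0.66 to 0.73). Zbp1, a sensor of left-handed nucleic acids that can trigger necroptosis, had ratios of 1.22, 0.19, 0.47, 1.49 and 0.02 in PXR-KO CMP013 mice, against 0.24, -0.35, -0.22, 0.17 and -0.09 in PXR-KO vehicle mice, and 0.66, 0.62, 1.72, 0.50 and 1.09 in WT CMP013 mice, against 0.06, 0.27, -0.36, -0.54 and 0.05 in WT vehicle mice. PXR-KO CMP013 replicates 1 and 4 were high and the other PXR-KO treated animals were lower. The fold changes of Zbp1 were 0.73 in PXR-KO (limma adjusted p = 0.184, not called) and 1.02 in WT mice (adjusted p = 0.0216), and the responses were not shown to differ (0.29, 95% confidence interval -0.53 to 1.12). The WT calls of Zbp1 and Igtp were each lost on leaving out WT vehicle replicate 3 or 4.

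Usp18, which removes the ubiquitin-like modifier Isg15 from proteins and blocks signalling at the type I receptor, had log2 ratios of -0.07, -0.32, 0.02, 0.20 and -0.04 in PXR-KO CMP013 mice, against -0.06, 0.06, -0.07, 0.27 and -0.16 in PXR-KO vehicle mice. Its WT ratios were 1.54, 0.69, 2.17, 1.00 and 1.52 with CMP013, against 0.16, 0.30, -0.36, -0.21 and -0.05 with vehicle. It rose by 1.41 in WT mice (limma adjusted p = 0.00568) and had -0.05 in PXR-KO mice, a difference of 1.46. Trim25, the ubiquitin ligase that activates RIG-I, passed no test and had 0.15 in PXR-KO and 0.15 in WT mice. Its 3 probe sets disagreed, between 0.02 and 0.75 in PXR-KO and between 0.15 and 0.69 in WT mice. None of the 3 was called in any comparison. Socs1, the feedback inhibitor of JAK kinases, passed no test either, at -0.25 and -0.13 (95% confidence intervals -0.58 to 0.08 and -0.46 to 0.19).

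Among the transcription factors Irf7 rose in WT mice and Irf8 in PXR-KO mice. Irf7, which amplifies type I interferon production, had log2 ratios of -0.16, -0.65, -0.16, -0.03 and -0.24 in PXR-KO CMP013 mice, against -0.22, -0.06, -0.06, 0.20 and 0.15 in PXR-KO vehicle mice. Its WT ratios were 0.63, 0.47, 1.33, 0.69 and 0.95 with CMP013, against 0.00, 0.31, -0.18, -0.09 and -0.11 with vehicle, a rise of 0.83 (limma adjusted p = 0.00947), and the responses differed by 1.07 (adjusted p = 0.00322). Irf8, a factor of macrophage and dendritic cell development, had 0.44, 0.44, 0.50, 0.59 and 0.53 in PXR-KO CMP013 mice, against 0.28, -0.28, 0.10, 0.03 and -0.07 in PXR-KO vehicle mice. In WT mice Irf8 had -0.45, -0.32, 0.08, -0.42 and -0.83 with CMP013, against 0.00, 0.30, -0.26, -0.32 and -0.05 with vehicle. It was the only member that rose in PXR-KO mice (0.49, adjusted p = 0.0392, a call lost on leaving out any of 9 of the 10 animals), its WT fold change was -0.32 (not called), and it was the only member with a called difference below 0 (-0.81, adjusted p = 0.0163). Its second probe set had 0.28 in PXR-KO mice and was called neither there nor in the difference (-0.43). Irf1, Irf9 and Stat2 passed no test. The WT fold change of Irf1, a factor of interferon-gamma responses, was 0.71 (adjusted p = 0.0706), while those of the ISGF3 subunits Irf9 and Stat2 were 0.30 and 0.22.

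Of the 7 interferon-gamma GTPases, 3 rose in WT mice. Irgm1, a GTPase of autophagy and defence against intracellular microbes, had log2 ratios of 0.34, -0.04, 0.00, 0.18 and 0.07 in PXR-KO CMP013 mice, against -0.23, -0.18, 0.11, 0.06 and 0.02 in PXR-KO vehicle mice. Its WT ratios were 0.77, 0.68, 1.23, 0.91 and 0.88 with CMP013, against 0.05, 0.22, -0.33, -0.16 and -0.12 with vehicle. It rose by 0.96 ± 0.13 in WT mice (limma adjusted p = 0.00146) and the responses differed by 0.80 (adjusted p = 0.00479). Igtp (Irgm3), which acts at the parasite vacuole, had 1.13, 0.24, 0.43, 0.98 and 0.57 in PXR-KO CMP013 mice, against 0.09, 0.17, 0.03, 0.36 and -0.31 in PXR-KO vehicle mice. In WT mice its ratios were 0.75, 0.78, 1.83, 0.63 and 1.46 with CMP013, against 0.01, 0.56, -0.09, -0.17 and 0.00 with vehicle. All 10 CMP013 animals of both genotypes stood above 0. In PXR-KO mice the groups still overlapped at Igtp, with 0.24 as the lowest CMP013 and 0.36 as the highest vehicle value. Its fold change was 0.60 in PXR-KO (adjusted p = 0.114, not called) and 1.03 in WT mice (adjusted p = 0.0213), with no call for the difference (0.43, 95% confidence interval -0.25 to 1.10). Irgm2, whose promoter shares the run of bases with that of Igtp, had 0.12 and 0.40 and passed no test, like Ifi47 (-0.13 and 0.22).

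The guanylate-binding proteins, which coat and break pathogen vacuoles, went different ways. Gbp2 had log2 ratios of 0.82, 0.81, 0.67, 1.47 and 0.76 in PXR-KO CMP013 mice, against 0.35, -1.01, 0.27, -0.14 and -0.04 in PXR-KO vehicle mice. In WT mice it had -0.30, -0.05, 0.68, -0.26 and -0.14 with CMP013, against 0.15, 0.31, -0.71, -0.51 and -0.13 with vehicle. The PXR-KO groups did not overlap at Gbp2 and the fold change there was 1.02 (limma adjusted p = 0.0597, not called), the highest of the set in PXR-KO mice, whereas in WT mice it was 0.16. The difference of -0.86 did not pass (adjusted p = 0.151). In PXR-KO mice Gbp2 was called higher under 3 alternatives, which were array weights, all 4 groups in one fit and the mean over probe sets. Gbp6 had -0.60, -0.92, -0.32, -0.05 and -0.52 in PXR-KO CMP013 mice, against 0.05, -0.17, 0.10, 0.08 and -0.15 in PXR-KO vehicle mice. Its WT ratios were 0.47, 0.11, 1.37, 0.41 and 0.54 with CMP013, against 0.15, 0.39, -0.67, -0.59 and 0.14 with vehicle. Its fold changes of -0.46 in PXR-KO and 0.70 in WT mice were not called, but their difference was (1.16, adjusted p = 0.0279). Its second probe set fell in PXR-KO mice by 0.88 (adjusted p = 0.0109). Gbp3 rose by 0.47 in WT mice (adjusted p = 0.0390), a call lost on leaving out any of 8 of the 10 animals.

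Set side by side, the classes gave the following counts and medians. Of 17 type I effectors, 0 rose in PXR-KO and 12 in WT mice, with medians of -0.23 (range -0.54 to 0.17) and 1.11 (0.01 to 2.06). Of 7 interferon-gamma GTPases, 0 rose in PXR-KO and 3 in WT mice (Gbp3, Igtp and Irgm1), with medians of 0.16 (-0.46 to 1.02) and 0.47 (0.16 to 1.03). The responses differed between genotypes at 13 of 17 effectors (median difference 1.18) and at 2 of 7 GTPases, Irgm1 and Gbp6 (median difference 0.35), where 5.47% of all probe sets were called higher in WT and the median over all probe sets was -0.02. All 17 effectors had a positive WT fold change, and 12 of 17 had a negative one in PXR-KO mice, whereas 5 of 7 GTPases were positive in PXR-KO mice. Leaving out 1 animal moved the PXR-KO medians by over 1.5 times. That of the effectors became -0.15 when CMP013 animal 2 of the PXR-KO mice was left out, and -0.10 when vehicle animal 1 was. That of the GTPases became 0.06 and 0.10 when CMP013 animals 4 and 1 of the PXR-KO mice were left out in turn, and 0.10 when vehicle animal 2 was. The median difference of the GTPases was 0.17 without the 4 vehicle animals that stand apart. These are counts and medians over genes chosen by name, and the classes were not tested against each other.

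Per animal, the median over the effectors was between -0.41 and 0.05 in PXR-KO CMP013 mice, against -0.13 and 0.09 in PXR-KO vehicle mice, and between 0.64 and 1.58 in WT CMP013 mice, against -0.29 and 0.26 in WT vehicle mice. The WT groups were thus clearly apart. For the GTPases the median lay between -0.18 and 0.55 in PXR-KO CMP013 mice, against -0.17 and 0.11 in PXR-KO vehicle mice, and between 0.11 and 0.95 in WT CMP013 mice, against -0.26 and 0.39 in WT vehicle mice. Here the WT groups overlapped, since WT vehicle replicate 2 stood at 0.39. PXR-KO CMP013 replicates 1 and 4 stood above all PXR-KO vehicle animals in the GTPases. In the effectors PXR-KO CMP013 replicates 1, 2, 3 and 5 stood below all PXR-KO vehicle animals, so replicate 1 did both.

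**Figure D2:**
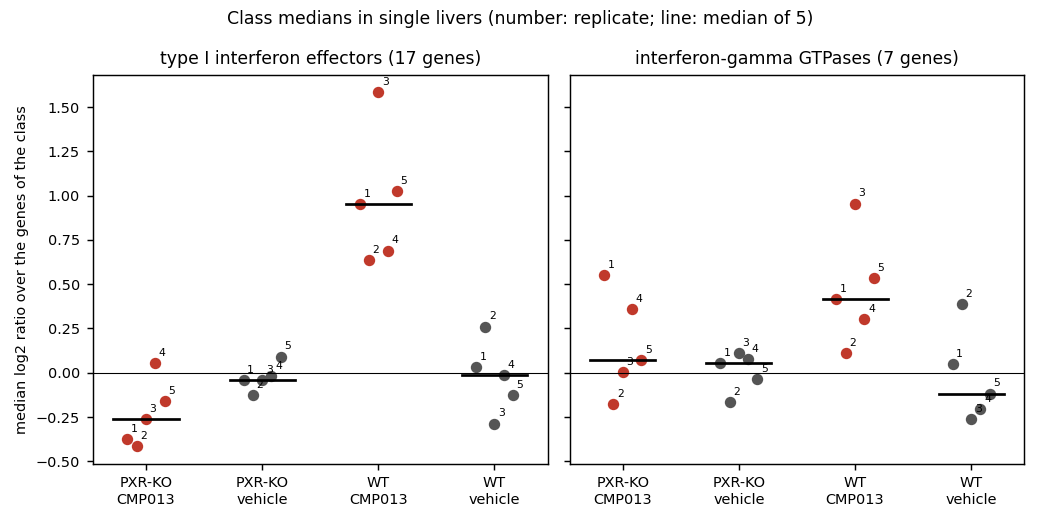
Median log2 ratio over the genes of a class (y axis) in each animal by group (x axis), type I effectors at left and interferon-gamma GTPases at right; digits are replicate numbers and lines are medians of 5 animals. The WT CMP013 animals lie between 0.64 and 1.58 for the effectors and between 0.11 and 0.95 for the GTPases, where they overlap the WT vehicle animals.

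The difference of the responses passed at 22 of 37 genes, 21 with the larger response in WT mice (background 5.47%) and 1, Irf8, with the larger response in PXR-KO mice (background 5.49%). Of the 22 genes that rose in WT mice, 18 also passed in the difference, and Gbp3, Igtp, Mx2 and Zbp1 did not. Gbp6, Irf8, Oasl2 and Rtp4 passed in the difference without a call in WT mice. The WT response was above the PXR-KO response at 34 of 37 genes, and 19 genes had a negative fold change in PXR-KO and a positive one in WT mice. Across the 37 genes, which share animals and are not independent, the fold changes of the genotypes had a Pearson r of -0.215. At 11 genes, among them Irf1, Irf9, Stat2, Oas2 and Oas3, no comparison passed.

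**Figure D3:**
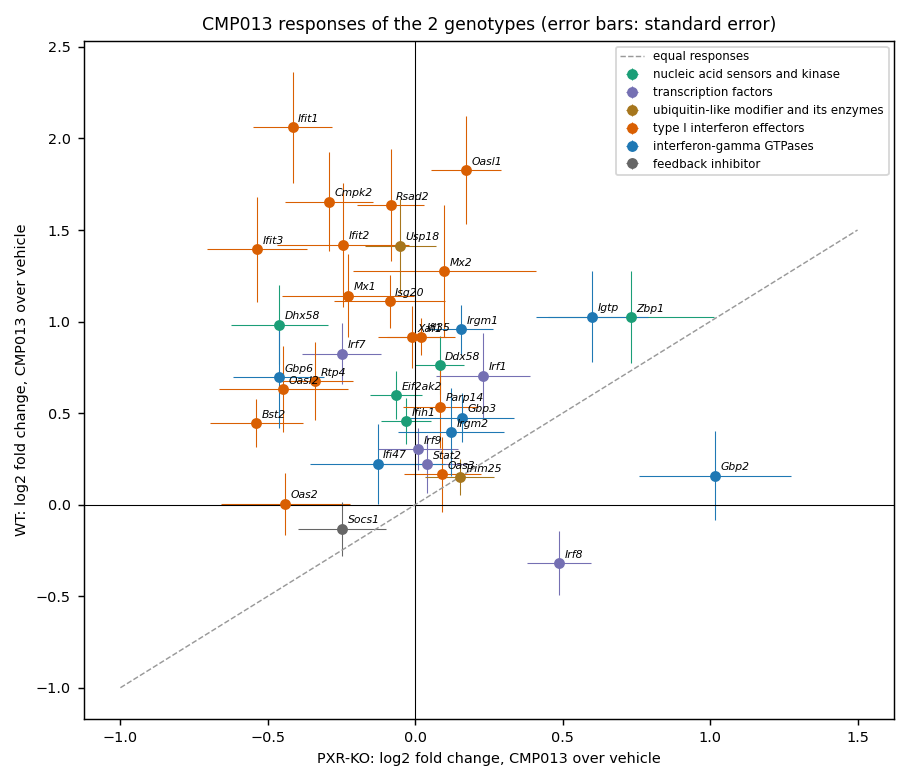
Log2 fold change of CMP013 over vehicle in PXR-KO mice (x axis) and in WT mice (y axis) for the 37 genes, coloured by class, with standard errors from limma; the dashed line marks equal responses. Ifit1 lies highest (2.06 in WT, -0.42 in PXR-KO), and Gbp2 (1.02 in PXR-KO, 0.16 in WT) and Irf8 (0.49 in PXR-KO, -0.32 in WT) lie below the line at right.

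**Figure D4:**
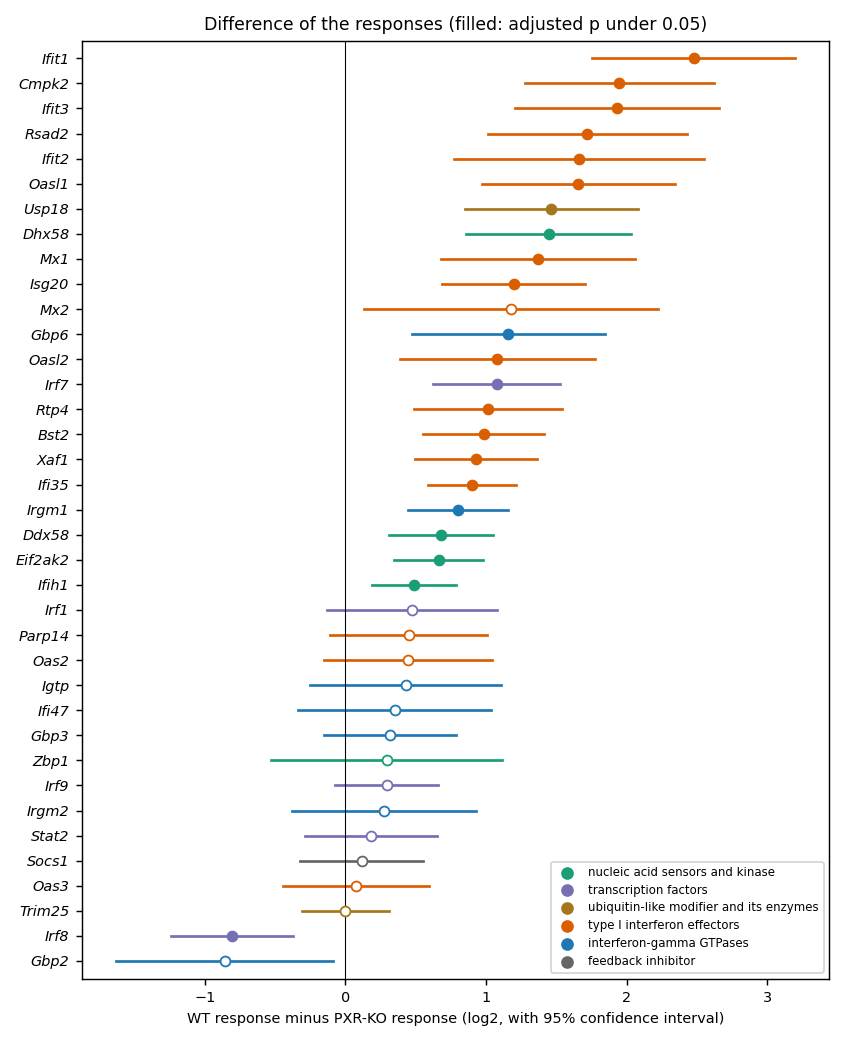
WT response minus PXR-KO response (x axis, log2) with its 95% confidence interval for the 37 genes (y axis), coloured by class; filled points passed the test at an adjusted p under 0.05. The 21 filled points right of 0 run between 0.49 (Ifih1) and 2.48 (Ifit1), and Irf8 is the filled point left of 0.

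How many genes passed depended on the vehicle animals and on the scaling. In WT mice 8 of the 22 calls remained without WT vehicle replicates 3 and 4, and 10 remained after quantile normalization of the log ratios. Cmpk2, Ifi35, Ifit1, Irgm1, Isg20, Oasl1 and Rsad2 were called under both, while every sensor and Irf7 was called under neither. In the difference 13 of 22 calls remained without the 4 vehicle animals and 9 after quantile normalization, Irf8 not being among these 9. Every one of the 22 WT fold changes stayed positive under the alternatives run.

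Outside the 37 genes, 0 of 9 interferon ligands were called in PXR-KO mice and 2 of 9 in WT mice (background 14.4%). In WT mice Ifna4 rose by 0.79 (limma adjusted p = 0.0350, lost on leaving out any of 7 of the 10 animals) and Ifna2 fell by 0.55. Ifna2 was low in PXR-KO mice too, though not called, with a median log2 ratio of -0.51 with CMP013 and -0.01 with vehicle. Ifng, named here after its values were seen because it is the ligand of the GTPase class, had -0.11 in PXR-KO and -0.12 in WT mice and was not called. None of 6 receptor genes was called in either genotype, and Ifnar2 was called in the difference (0.46). Of 9 JAK-STAT transducers and inhibitors, Pias1, an inhibitor of STAT proteins, fell in WT mice by 0.36, and 0 were called in PXR-KO mice. In the difference 2 of these 9, Jak1 and Ptpn6, were called lower (background 5.49%) and 0 higher. The Jak1 call was lost on leaving out any of 13 of the 20 animals. Of 13 genes of upstream sensing and IRF activation, 0 were called in PXR-KO mice and 4 in WT mice, where Ikbke, a kinase of Irf3, rose by 0.57 and Tirap, a Toll-like receptor adaptor, by 0.35, while Irf3 fell by 0.43. Irf2, a factor that competes with Irf1 for the response element, fell in WT mice by 1.04 (limma adjusted p = 0.000113) and had 0.03 in PXR-KO mice, a difference of -1.07 (adjusted p = 2.92e-05).

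Of 34 other interferon-induced genes, listed like the set itself with earlier results of these data known, 1 rose (background 2.12%) and 2 fell (background 1.54%) in PXR-KO mice, and 5 rose (background 7.67%) and 0 fell (background 6.72%) in WT mice. Cxcl10, a chemokine for T cells, rose in both genotypes, by 1.61 in PXR-KO (limma adjusted p = 0.00533) and 2.12 in WT mice (adjusted p = 0.00453), and the difference of 0.51 did not pass. Tap1, the peptide transporter of antigen presentation, and Psmb9, an immunoproteasome subunit, fell in PXR-KO mice by 0.58 and 0.67, the Psmb9 call being lost on leaving out any of 7 of the 10 animals. In WT mice Lgals3bp, a secreted glycoprotein, rose by 0.79, Parp12 by 0.53 and Ube2l6, the conjugating enzyme for Isg15, by 0.52. The responses differed at 8 of the 34, with 7 larger in WT mice (background 5.47%).

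Markers of other liver and blood cells also moved with CMP013, and their part in the results was not tested. In PXR-KO mice the Kupffer cell and macrophage list (2 of 8 rose) included a rise of 4.22 for Marco and 1.11 for Cd68, while 4 of the 8 had a negative fold change and the list's median was 0.12. Its mean ratio, which includes Marco, lay between 0.36 and 0.78 in CMP013 animals, against -0.54 and 0.59 in vehicle animals. In WT mice 3 of 8 fell (Csf1r by 0.58, Vsig4 by 0.46 and Clec4f by 0.39), and the mean lay between -0.45 and -0.13 in CMP013 animals, against -0.45 and 0.21 in vehicle animals. Of 3 neutrophil markers, S100a8 rose in PXR-KO mice by 2.08, and S100a8 and S100a9 rose in WT mice by 1.12 and 1.12. The lowest fold change of the 3 was -0.31 in PXR-KO and 0.00 in WT mice, so the list did not move as a whole. The neutrophil mean was between 0.01 and 2.34 in PXR-KO CMP013 animals, against -0.71 and 0.19 in PXR-KO vehicle animals, and between 0.52 and 1.13 in WT CMP013 animals, against -0.32 and 0.22 in WT vehicle animals. Of 4 monocyte markers, Chil3 rose in both genotypes (1.78 in PXR-KO and 0.81 in WT mice). The other monocyte markers were not called, with fold changes of -0.19, 0.27 and 0.34 in PXR-KO and -0.44, -0.06 and -0.24 in WT mice for Ccr2, Itgam and Lyz2. None of 6 dendritic cell, 8 T and NK cell or 3 B cell markers was called in either genotype. Of 6 sinusoidal endothelial markers, Lyve1 rose (1.12) and Kdr fell in PXR-KO mice, and 4 fell in WT mice. In PXR-KO mice 5 of the 6 had a negative fold change, and the median of the list was -0.11. Of 7 hepatocyte markers 0 were called in PXR-KO mice and Pck1 fell in WT mice by 0.64. Several of these marker calls were lost on leaving out 1 animal, namely in PXR-KO mice Kdr in 10, S100a8 in 8 and Chil3 in 7 of 10 cases, and in WT mice Clec4f in 8 and S100a9 in 2 of 10 cases, with Vsig4 and Fcgr2b lost without WT vehicle replicate 4. In the difference of the responses 3 of 8 macrophage markers (Marco, Cd68 and Vsig4) and 2 of 6 endothelial markers (Clec4g and Lyve1) were called lower. So were 1 of 8 T and NK cell markers (Cd3e) and 1 of 7 hepatocyte markers (Pck1), against a background of 5.49%. No marker was called higher in the difference. Leaving out 1 of the 20 animals lost the difference at Vsig4 in 15 cases, at Cd3e in 12 and at Pck1 in 4. Because the values are ratios, whether a marker is present at all cannot be read from them, so the liver label was not checked against levels.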

How the data were processed

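Total liver RNA of each mouse was hybridized to 1 Affymetrix mouse genome array, and, per the methods of the study, without technical replication. The authors computed the deposited log10 ratios in Rosetta Resolver as the intensity of each animal over the mean of the 5 vehicle animals of its genotype. They were converted to log2 here and not normalized further. No value is missing, and 7 values, none of a member, stand at the limit of a log10 ratio of 2. Intensities and platform p-values were not used here, so dim probe sets were kept. The animals' numbers limit the precision, and nothing in the sources says whether they shared a litter or cage.

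The members and gene lists were chosen with earlier results of these data known. Every member is named, and from the other lists up to 4 called genes with the smallest adjusted p per comparison. For each gene 1 probe set was used, preferring names free of the _s_ and _x_ marks and then the lowest spread among vehicle animals. Tests used lmFit and eBayes of limma 3.58.1 under R 4.3.3 (Benjamini-Hochberg over 45037 probe sets, adjusted p under 0.05), within a genotype on its 10 arrays and for the difference on all 20. Replicate numbers are shared between groups, but same-numbered animals did not deviate together (correlations between -0.242 and 0.065), so no pairing was used. Alternatives were quantile normalization, arrays shifted to median 0, variances with trend and robust, array weights, the replicate block, all 4 groups in one fit, a minimum fold change set by the study, the mean over a gene's probe sets, 4 vehicle animals left out, and each animal left out in turn. The fit was tested on simulated data. Promoters came from RefSeq (GRCm38.p6). Python 3.11.15 with pandas 2.3.3, numpy 2.4.6 and matplotlib 3.10.9 made the summaries and figures.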

Additional observations from a re-analysis of the deposited data

Results flagged for a closer look

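In 148 groups of 5 animals (37 genes in 4 groups), 11 held an animal far from the other 4, and chance gives about 1 in 20. PXR-KO CMP013 replicate 2 was low at Ifit1 (-0.86, next -0.39) and Rtp4 (-0.72, next -0.34). PXR-KO CMP013 replicate 1 was high at Irf1 (0.71, next 0.12) and replicate 4 at Gbp2 (1.47, next 0.82), and PXR-KO vehicle replicate 2 was high at Mx2 (0.67, next -0.23). WT CMP013 replicate 3 was high at Eif2ak2 (1.08, next 0.54), Bst2 (0.74, next 0.36) and Gbp2 (0.68, next -0.05). WT vehicle replicate 2 was high at Igtp (0.56, next 0.01) and Ifi47 (0.59, next -0.08), and WT vehicle replicate 3 was low at Ifit3 (-0.40, next -0.01).

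The response differed between genotypes at 22 genes by limma (adjusted p under 0.05), given in log2 as WT minus PXR-KO. Among the effectors the differences were 2.48 for Ifit1, 1.95 for Cmpk2, 1.93 for Ifit3, 1.72 for Rsad2, 1.66 for Ifit2, 1.65 for Oasl1, 1.37 for Mx1, 1.20 for Isg20, 1.08 for Oasl2, 1.01 for Rtp4, 0.98 for Bst2, 0.93 for Xaf1 and 0.90 for Ifi35. Sensors and the kinase gave 1.44 for Dhx58, 0.68 for Ddx58, 0.66 for Eif2ak2 and 0.49 for Ifih1. Ddx58 and Eif2ak2 were each called in the difference at 1 of 3 probe sets, and Dhx58 at 2 of 3. Usp18 gave 1.46, Irf7 1.07, Gbp6 1.16 and Irgm1 0.80. The value for Irf8 was -0.81, the larger response being that of PXR-KO mice.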

How the results depend on the processing

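No fold change of a called gene changed sign under any alternative run. No class median moved by more than the standard deviation of the class medians of the treated animals, combined over both genotypes for the difference. That limit is wide beside the small medians, so it does not show that they are stable. Within it, the PXR-KO median of the GTPases ran from 0.06 to 0.21 on leaving out single animals. The counts moved more. In PXR-KO mice, where 1 gene was called, 0 were called after quantile normalization, with trend and robust variances, and without PXR-KO vehicle replicates 2 and 4, 3 with array weights (2 higher, Irf8 and Gbp2, and 1 lower, Bst2), 2 with all 4 groups in one fit (Gbp2 higher, Bst2 lower) and 2 with the mean over probe sets (Gbp2 higher, Gbp6 lower). Irf8 was called in neither of these last fits. In WT mice 22 genes were called, 10 after quantile normalization and 8 without WT vehicle replicates 3 and 4. The difference was called at 22 genes, at 9 (0 lower) after quantile normalization and at 13 (12 higher) without those 4 vehicle animals. The cause of these changes was not tested. Leaving out single animals gave 0 to 1 calls in PXR-KO mice, 16 to 22 in WT mice and 19 to 22 (18 to 21 higher) in the difference, and 16 of the 22 WT calls and 19 of the 22 differences held in every case. With the replicate number as a block, although the numbers were not found to pair the animals, 0 genes were called in PXR-KO mice, 10 in WT mice and 19 in the difference. The probe sets of the 15 genes with more than 1 were called alike at 13 genes in PXR-KO mice, 11 in WT mice and 8 in the difference. Signal over background was not used to weigh dim probe sets, and a strain effect cannot be told apart from that of PXR.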
